A study of Homo sapiens with 9 samples.

Results

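The mRNAs of 10 RNA-binding proteins of stem cells were followed through the vesicles that H9 human embryonic stem cells release. The genes were LIN28A, LIN28B, L1TD1, IGF2BP1, IGF2BP2, IGF2BP3, YBX1, ELAVL1, PABPC1 and RBPMS2. Every probe set that the annotation of the Affymetrix HG-U133 Plus 2.0 array pairs with one of these symbols was taken. This gave 23 probe sets of 54613, and each of the 10 genes had at least 1. H9 is an established embryonic stem cell line, grown here without feeder cells and serum in mTeSR1 medium on Matrigel, with no treatment in any group. The vesicles were collected from its conditioned medium. Microvesicles (MVs) are the pellet of a 16500g spin, and exosomes (EXOs) the pellet that the remaining medium gave at 120000g. Non-fractionated hESEVs were pelleted without separating these. The labels and the study's methods differ in the spins given for hESEVs. Each group had 3 arrays of total RNA, from 3 biological samples according to the methods. For MVs and EXOs the study's results name 3 cultures of this one line. Pellets made by speed are enriched for a vesicle size and are not pure, and no array of the H9 cells themselves was analysed here.

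These proteins bind RNA, including mRNAs in the cytoplasm. LIN28A and LIN28B are best known for blocking the maturation of the let-7 microRNAs, a family that stem cells keep low, and they also bind many mRNAs directly. The IGF2BP proteins carry and stabilise mRNAs in embryonic and cancer cells. YBX1 coats mRNA along its length, ELAVL1 (HuR) binds AU-rich stretches, and PABPC1 binds the poly(A) tail. L1TD1 is an RNA-binding protein derived from a LINE-1 element that is abundant in human embryonic stem cells, and RBPMS2 is an RNA-binding protein studied in developing smooth muscle and heart.

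The RNA that gives LIN28 its best-known role is shown here as background, since the genes around let-7 are one of the groups described further on. The zinc knuckles of LIN28 contact a GGAG in the terminal loop region of let-7 precursors, given in capitals in 3 hairpins from RefSeq (GRCh38.p14) at chr3:52268278-52268361 (minus strand), chr9:94175957-94176036 (plus strand) and chr22:46112749-46112822 (plus strand, with no such run of letters).
MIRLET7G: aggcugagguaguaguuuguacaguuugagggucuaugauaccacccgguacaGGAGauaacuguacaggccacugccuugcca
MIRLET7A1: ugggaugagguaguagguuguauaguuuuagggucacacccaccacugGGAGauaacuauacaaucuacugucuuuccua
MIRLET7A3: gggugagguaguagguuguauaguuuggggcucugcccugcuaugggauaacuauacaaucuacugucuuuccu
The letters GGAG, read on the hairpin strand, occurred in 9 of 12 hairpins of the let-7 family (75%), against 678 of all 1562 hairpins in that table (43.4%). A match is a description of the letters and no measured binding, and the arrays here measured mRNAs and not these precursors.

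The values were MAS5 signals, scaled by the authors so that the mean of each array without its extremes was 500. A signal is therefore relative to the other RNA on its array. The methods give the same amount of total RNA for each sample, so the amount of an mRNA per vesicle cannot be read from a signal. Probe sets of genes that belong to blood, liver and other tissues gave a yardstick for signals without a stem cell source. Its background level, the 90th percentile of the group means of 71 probe sets of 35 such genes, was 876 in MVs, 1209 in EXOs and 1199 in hESEVs. A signal of 5000 was exceeded by 908 to 945 probe sets on each MVs array, against 293 to 319 on each EXOs array and 441 to 463 on each hESEVs array, so the arrays differed in the shape of their signals as well. Of 9 measured markers of human embryonic stem cells, 8 lay above the background level in MVs, 4 in EXOs and 7 in hESEVs, and the sum of their signals spanned 46112 to 48978 over the MVs arrays, 10369 to 13438 over the EXOs arrays and 15009 to 16621 over the hESEVs arrays. LEFTY1 lay under the level in all 3 groups. The control probe sets for the 3′ ends of ACTB and GAPDH mRNA were on average brighter than those for the 5′ ends. For ACTB the log2 difference was 4.57 in MVs, 2.61 in EXOs and 3.24 in hESEVs. For GAPDH it was 1.53 in MVs, 0.67 in EXOs and 1.04 in hESEVs. For either gene the arrays of MVs and EXOs did not overlap (p = 0.1 by a two-sided exact permutation test, and 3 against 3 arrays allow no smaller p). Electrophoresis in the study showed much longer RNAs in MVs than in EXOs, while the 3′ excess here was larger in MVs. The part of RNA length in the results that follow was not tested.

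LIN28A, LIN28B and L1TD1 mRNAs were all higher in MVs than in EXOs. LIN28A (gene ID 79727), with a single probe set, gave signals of 17277, 16718 and 19267 in MVs, 2784, 2635 and 2381 in EXOs, and 4259, 4063 and 4501 in hESEVs. The groups did not overlap, and every array lay above the background level of its group. The mean was 17754 ± 1340 in MVs and 2600 ± 204 in EXOs (SD, n = 3 arrays each), a log2 fold change of 2.77 (standard error 0.10, limma, two-sided, adjusted p = 1.6e-06), or 6.83-fold. LIN28B (gene ID 389421), its close relative, gave 3539, 3648 and 3232 in MVs, 1103, 877 and 676 in EXOs, and 1603, 1683 and 1380 in hESEVs. These groups did not overlap either, but the 3 EXOs signals lay under the background level of 1209, so the 4.00-fold difference (log2 fold change 2.00, standard error 0.18, adjusted p = 0.00026) is at least 2.87-fold when EXOs are set at that level.

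L1TD1 (gene ID 54596) was measured by a pair of probe sets. Its leading probe set, the brighter over all 9 arrays, gave 9453, 10302 and 8985 in MVs, 1376, 1616 and 2042 in EXOs, and 2389, 2517 and 2658 in hESEVs. Again no array of one group reached into another, and the log2 fold change, MVs minus EXOs, was 2.53 (standard error 0.15, adjusted p = 2.0e-05), or 5.78-fold. The other probe set, 236894_at, gave 1112, 1230 and 1069 in MVs, 331, 347 and 670 in EXOs, and 540, 426 and 872 in hESEVs. It was called in the same direction (log2 fold change 1.42, standard error 0.30, adjusted p = 0.021). No size can be read from it, since EXOs and hESEVs lay under their background level and the MVs mean of 1137 did not reach the EXOs level of 1209. That call was lost without any one of the 3 MVs arrays, EXOs array 1 or EXOs array 2 (adjusted p = 0.061 to 0.082).

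**Figure D1:**
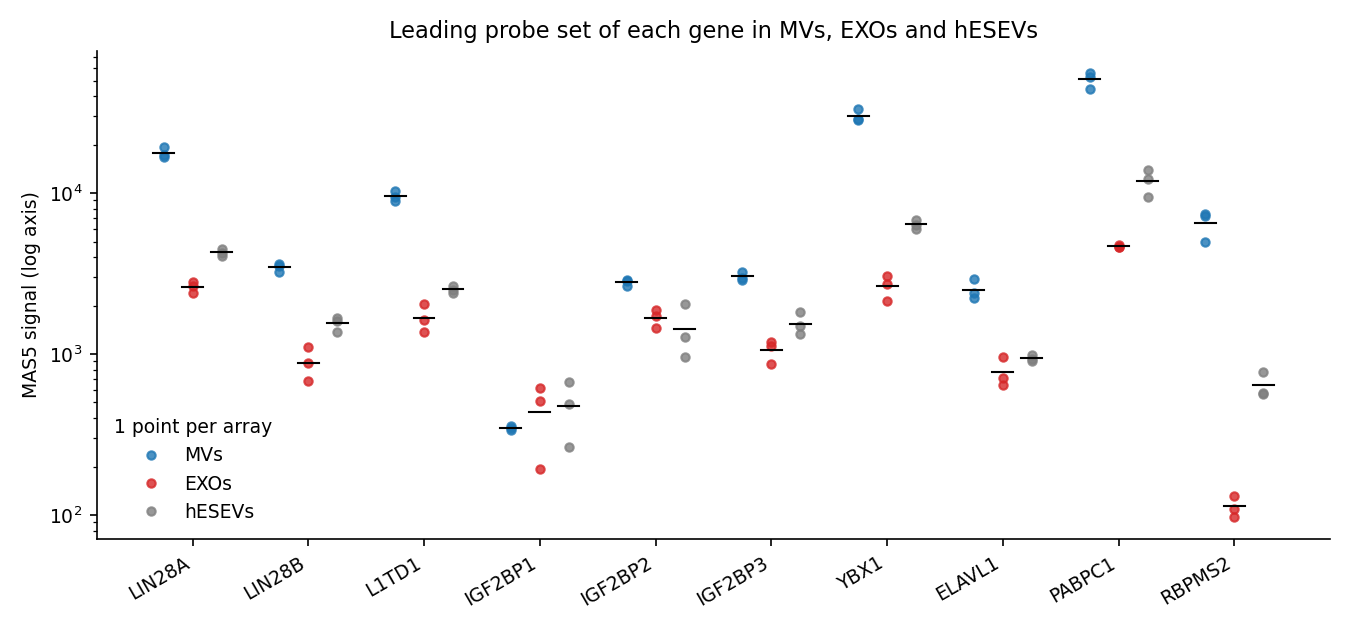
MAS5 signal (log axis) of the leading probe set of each of the 10 genes, 1 point per array and a bar at the mean of 3 arrays, for MVs, EXOs and hESEVs. The MVs arrays lie above all EXOs arrays for every gene but IGF2BP1, with the widest gap for RBPMS2 (6515 against 113 on average).

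The IGF2BP family was less uniform. IGF2BP3 (gene ID 10643) rose in MVs by its leading probe set, 203820_s_at, with signals of 2972, 2894 and 3246 in MVs, 1125, 1189 and 866 in EXOs, and 1812, 1501 and 1328 in hESEVs. The groups did not overlap, and the log2 fold change, MVs minus EXOs, was 1.53 (standard error 0.15, adjusted p = 0.00035), or 2.89-fold, and at least 2.51-fold with EXOs at the background level. A companion probe set, 203819_s_at, gave 2615, 2738 and 2067 in MVs, 1268, 862 and 1276 in EXOs, and 1847, 1296 and 956 in hESEVs. Its EXOs mean of 1135 lay under the background level, so that the measured 2.20-fold (log2 fold change 1.14, standard error 0.19, adjusted p = 0.0079) is at least 2.03-fold with EXOs at that level. At 0.95 without EXOs array 2 or 0.73 after quantile normalization it no longer reached 2-fold. Both 203820_s_at and 203819_s_at are marked by the array design as sharing sequence with other transcripts. Without shared probe sets the gene had none higher in MVs. The other 2 probe sets of the gene leaned the other way and were not called. Of these, 1569033_at had means of 671 in MVs and 1095 in EXOs (adjusted p = 0.077), and 216493_s_at had means of 314 in MVs and 586 in EXOs (adjusted p = 0.21), all under the background level. With the 4 probe sets averaged, the log2 fold change was 0.23 and not called.

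IGF2BP2 (gene ID 10644) gave 2898, 2844 and 2662 in MVs, 1442, 1729 and 1877 in EXOs, and 963, 2054 and 1267 in hESEVs by its leading probe set. The MVs arrays lay above all others, while EXOs and hESEVs overlapped. The difference between MVs and EXOs was 1.67-fold (log2 fold change 0.74, standard error 0.13, adjusted p = 0.0078), which is under the 2-fold that a call needs, and after quantile normalization it was 0.02. Its other probe set stayed between 58.4 and 387 on the 9 arrays.

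IGF2BP1 (gene ID 10642) had no probe set above the background level in any group. The probe set 223689_at gave 392, 514 and 493 in MVs, 112, 79.8 and 126 in EXOs, and 127, 334 and 92.2 in hESEVs. MVs lay above the other groups on every array, and the log2 fold change, MVs minus EXOs, was 2.15 (standard error 0.51, adjusted p = 0.032). No size can be put on it, since both groups lay under the background level, and the call was lost without any single array (adjusted p = 0.051 to 0.11). The probe set 227377_at averaged 518 in MVs and 123 in EXOs and missed the threshold (log2 fold change 2.13, standard error 0.58, adjusted p = 0.054). The leading one, 241574_s_at, gave 346, 338 and 356 in MVs, 194, 509 and 613 in EXOs, and 265, 487 and 671 in hESEVs. There the groups overlapped, and the log2 fold change of −0.18 (standard error 0.49, adjusted p = 0.84) changed sign with quantile normalization (0.030) and median centring (0.055).

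YBX1 and PABPC1, general coats of mRNA, were both higher in MVs. YBX1 (gene ID 4904) gave 28325, 33265 and 29060 in MVs, 2715, 2126 and 3043 in EXOs, and 6842, 6374 and 6010 in hESEVs. The 3 groups were far apart, with 30217 ± 2665 in MVs and 2628 ± 465 in EXOs (SD, n = 3 each), 11.6-fold (log2 fold change 3.54, standard error 0.15, adjusted p = 2.6e-06). Its second probe set, 208627_s_at, gave 11693, 13751 and 10128 in MVs, 1449, 1790 and 1939 in EXOs, and 3842, 3445 and 3269 in hESEVs, or 6.87-fold (log2 fold change 2.78, standard error 0.15, adjusted p = 1.3e-05). Both lay above the background level on every array. The last one, 216940_x_at, stayed between 24.3 and 167 on all arrays and was not called. All 3 YBX1 probe sets are marked by the array design as sharing sequence with other transcripts, so part of their signal may not be of YBX1.

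PABPC1 (gene ID 26986) gave 52702, 55774 and 44096 in MVs, 4740, 4631 and 4634 in EXOs, and 13989, 9458 and 12156 in hESEVs. The EXOs arrays lay close together (4668 ± 62.2, SD, n = 3), and MVs were 10.8-fold higher (log2 fold change 3.44, standard error 0.11, adjusted p = 1.2e-06). This probe set, 215157_x_at, is one that the array design marks as sharing sequence with other transcripts, and the gene has many near-identical copies, so part of its signal may belong to relatives. The other PABPC1 probe set, 1560770_at, averaged 283 in MVs and 578 in EXOs, the opposite order, without passing the test (log2 fold change −1.07, standard error 0.38, adjusted p = 0.12) and under the background level in all groups.

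These sizes depended on the scaling. Differences given as at least a certain fold, here and further on, hold for the deposited scaling only. With quantile normalization, which forces all arrays to the same distribution, the log2 fold change, MVs minus EXOs, was 1.65 for YBX1 by its leading probe set, 1.09 for PABPC1, 1.12 for LIN28A and 1.34 for L1TD1, still called, and 5.05 for RBPMS2. Median centring gave 3.77 for YBX1, 3.67 for PABPC1 and 3.01 for LIN28A. With the probe sets of each gene averaged, it was 2.25 for YBX1 and 1.19 for PABPC1, again called.

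ELAVL1 and RBPMS2 were higher in MVs on signals that EXOs did not show above background. ELAVL1 (gene ID 1994) gave 2241, 2924 and 2381 in MVs, 958, 643 and 710 in EXOs, and 981, 929 and 909 in hESEVs by its leading probe set. MVs stood apart, EXOs and hESEVs overlapped, and the log2 fold change, MVs minus EXOs, was 1.72 (standard error 0.19, adjusted p = 0.00074), or 3.29-fold, and at least 2.07-fold with EXOs at the background level. Of its other 3 probe sets, 227746_at averaged 509 ± 97.7 in MVs and 967 ± 201 in EXOs (SD, n = 3 each), both under the background level, with lower signals on every MVs array but a difference under 2-fold (log2 fold change −0.92, standard error 0.24, adjusted p = 0.048). The 2 left over lay between 50.8 and 669 and were not called, and with all 4 averaged the gene had a log2 fold change of 0.20.

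RBPMS2 (gene ID 348093) had the widest gap of the 10 genes. All 10 were chosen with earlier results of these arrays known. The gap of RBPMS2 was among those results, so it is given as a description. The only RBPMS2 probe set gave 4997, 7169 and 7379 in MVs, 132, 97.7 and 110 in EXOs, and 565, 575 and 774 in hESEVs. All EXOs and hESEVs arrays lay under their background level and all MVs arrays far above it, and the nominal 57.2-fold difference (log2 fold change 5.84, standard error 0.22) is at least 5.31-fold with EXOs at their background level. RBPMS2 has a paralog, RBPMS, that also rose in MVs (4601 ± 265 in MVs, 674 ± 200 in EXOs).

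Counted over all probe sets, 12 of 23 were called higher in MVs than in EXOs, where 7.23% of all 54613 probe sets were, and 0 were called lower, where 1.97% of all were. A call needed a Benjamini-Hochberg adjusted p under 0.05 over all probe sets and at least 2-fold. These genes, and the lists further on, were chosen with earlier results of these data known. The counts beside such shares are therefore a description. The methods' t-test without adjustment gave 13 higher (8.59% of all probe sets) and 1 lower (4.85% of all), and with Benjamini-Hochberg adjustment 10 higher (4.84% of all) and 0 lower (0.815% of all). The arrays of MVs and EXOs did not overlap for 14 probe sets with higher signals in MVs (13.3% of all probe sets) and 3 with lower ones (21.6% of all). The median log2 fold change was 1.42 for the 23 and −0.29 for all probe sets. By leading probe sets, 8 of 10 genes were higher in MVs, against 10.9% of 19775 genes, and 0 were lower, against 2.14%, with a median of 2.26 and one of −0.23 over all genes. By any probe set, 9 of the 10 genes were called higher, against 13.9% of all genes, and IGF2BP2 was the exception. The ninth is IGF2BP1, which counts through 223689_at alone, under background in both groups and not called without any single array. Of the 12 called, 11 lay above the background level in MVs, 5 in EXOs and 8 in hESEVs, and since a high MVs signal is part of the call, the first of these counts is a description. Of the 11 not called, the leading probe set of IGF2BP2 was the one above it, in each group.

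**Figure D2:**
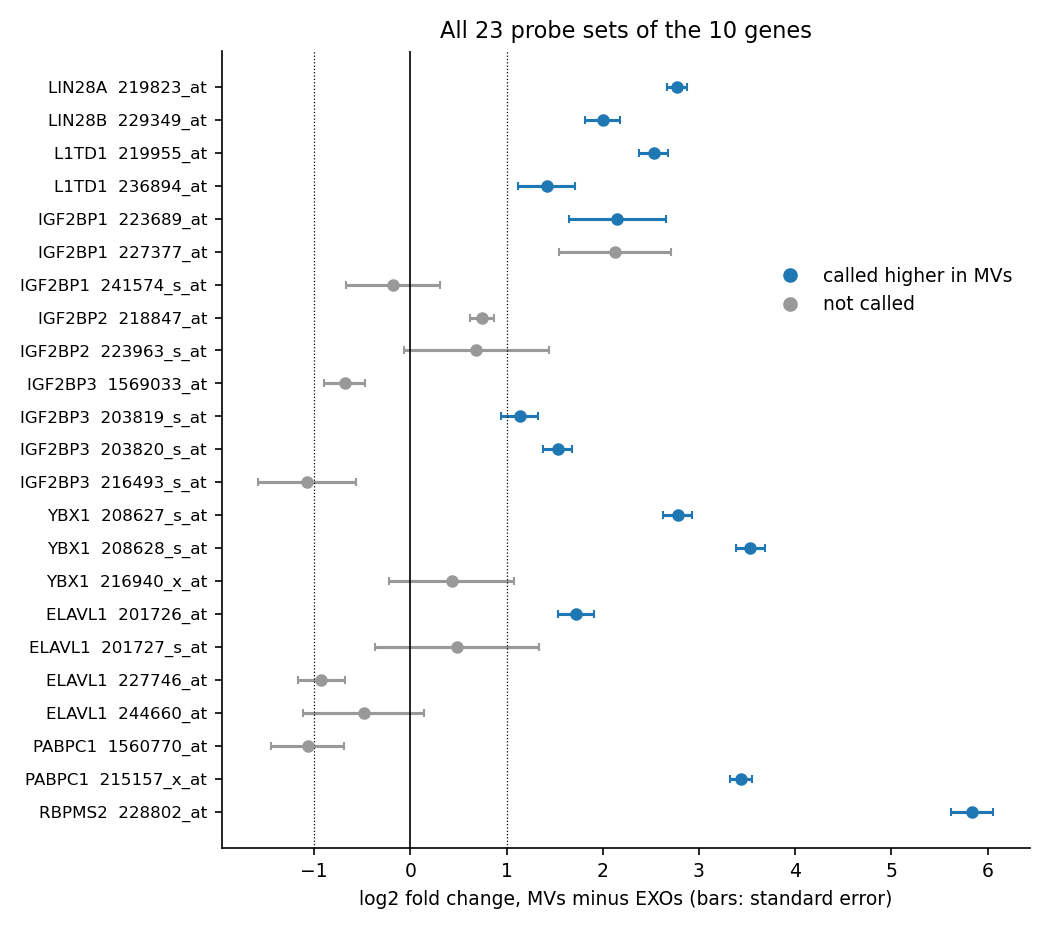
Log2 fold change, MVs minus EXOs, of all 23 probe sets with bars of 1 standard error, and dotted lines at 2-fold. The 12 called (blue) all lie to the right, and probe sets of IGF2BP3, ELAVL1 and PABPC1 lie on either side of 0.

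The comparison with non-fractionated hESEVs asks where each fraction stands against the whole. MVs were higher than hESEVs for 9 of 23 probe sets (4.25% of all probe sets) and lower for 0 (1.05% of all). The log2 fold change, MVs minus hESEVs, was 3.35 for RBPMS2 (standard error 0.23), given as a description, since the gap of RBPMS2 in these arrays was known beforehand. For the 2 brighter YBX1 probe sets it was 2.24 and 1.74 (adjusted p = 3.3e-06 and 2.1e-05), for PABPC1 2.11 (adjusted p = 6.7e-06) and for LIN28A 2.05 (adjusted p = 1.5e-06). It was 1.92 for L1TD1, 1.41 for ELAVL1 and 1.16 for LIN28B. RBPMS2 and ELAVL1 lay under the background level in hESEVs, which makes their differences at least 5.35-fold and at least 2.08-fold. IGF2BP2 passed by a small margin (1.04, adjusted p = 0.020), with the 3 hESEVs arrays spread from 963 to 2054, and not without any of the MVs arrays or hESEVs array 1 (0.79) or 3. IGF2BP3 was just short of 2-fold (0.98, adjusted p = 0.0031), and reached it without MVs array 2 (1.02) or hESEVs array 1 (1.10). With quantile normalization 2 of the 9 calls were left, and the log2 fold change was 0.78 for LIN28A, 0.74 for YBX1 and 0.50 for PABPC1. Averaging the probe sets of each gene ended the calls of PABPC1 (0.64), ELAVL1 (0.17) and IGF2BP2 (0.47).

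EXOs were lower than hESEVs for 4 of 23 probe sets (1.95% of all probe sets) and higher for 0 (0.103% of all). These were RBPMS2 (log2 fold change, EXOs minus hESEVs, −2.49, standard error 0.23, again a description), PABPC1 (−1.33, adjusted p = 0.00029) and YBX1 with 2 probe sets (−1.30, adjusted p = 0.00018, and −1.03, adjusted p = 0.0017). Both EXOs and hESEVs lay under the background level for RBPMS2, so its difference has no size. In a fit of those 6 arrays alone the call of RBPMS2 was lost (adjusted p = 0.054). Another 3 genes passed the adjusted p below 2-fold, with a log2 fold change of −0.72 for LIN28A (adjusted p = 0.0016), −0.84 for LIN28B (adjusted p = 0.028) and −0.61 for L1TD1 (adjusted p = 0.046). LIN28B reached −1.01, and a call, without EXOs array 1. Its EXOs mean of 885 lay under the background level of 1209, so that the size of its difference cannot be read. The call of 208627_s_at of YBX1 was lost without EXOs array 1 or hESEVs array 1, where it was under 2-fold. With quantile normalization only RBPMS2 kept its call, and averaging the probe sets ended those of YBX1 (−0.64) and PABPC1 (−0.55). The 3 comparisons share arrays, so that they do not bear each other out.

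On a linear scale from the mean of EXOs (0%) to the mean of MVs (100%), the mean of hESEVs lay between the fractions for 18 of the 23 probe sets. The 12 called higher in MVs, chosen by their gap between MVs and EXOs, were all among them. A place can be read where all 3 groups lay above the background level, which held for 5 probe sets, and there hESEVs lay nearer to EXOs. Their place was 11.1% for LIN28A (9.66% to 12.5% over the 3 arrays), 10.7% for the leading probe set of L1TD1, 13.7% and 17.7% for those of YBX1, and 15.6% for PABPC1. For the other 7, RBPMS2, ELAVL1, LIN28B and IGF2BP3 among them, EXOs lay under the background level, and no place is given. Over the deposited signals of all 12 the median was 16.4%, beside 21.9% for all 3949 probe sets higher in MVs (25th to 75th percentile 13.0% to 33.2%), a comparison that takes in signals under background on both sides. With quantile normalization the order turned, at 34.0% for the 12 and 32.8% for all, so that no place particular to these genes can be read from it.

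**Figure D3:**
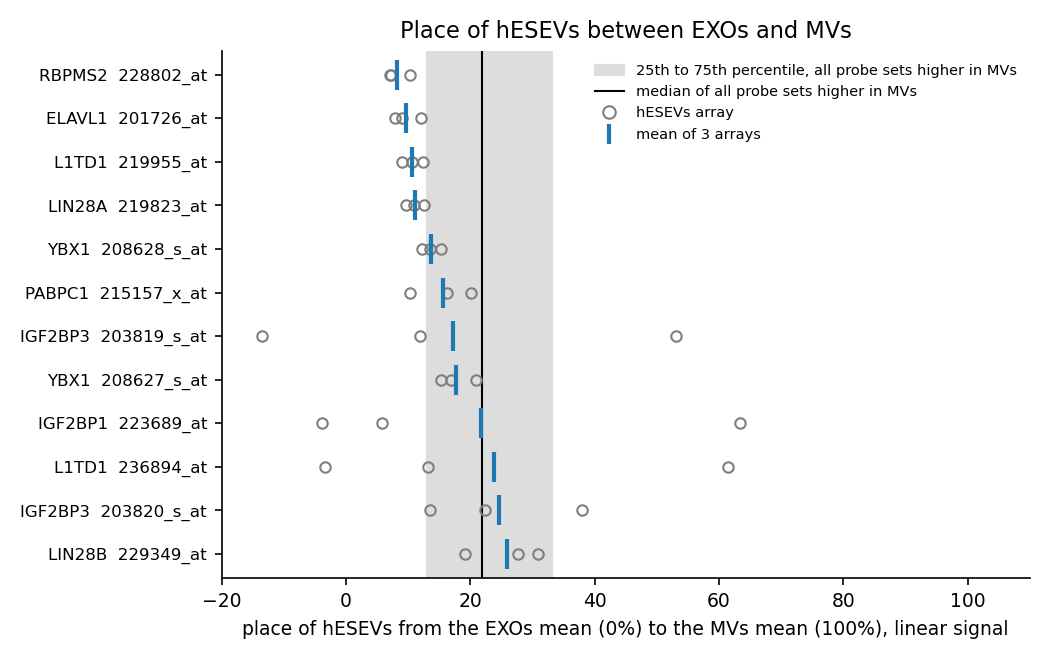
Place of the 3 hESEVs arrays (circles) and their mean (blue bars) between the EXOs mean (0%) and the MVs mean (100%) on the linear signal, for the 12 probe sets higher in MVs, with the 25th to 75th percentile of all 3949 such probe sets (grey) and their median (black line, 21.9%). LIN28A, L1TD1 (219955_at), both YBX1 probe sets and PABPC1, above background in all groups, lie at 10.7% to 17.7%, and for the other 7 EXOs lay under background, so that their places carry no size.

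The genes whose signals followed LIN28A most closely over the 9 arrays, among 4871 genes above the background level in MVs, were MYH10 (non-muscle myosin heavy chain), VDAC3 (a channel of the outer mitochondrial membrane), MTHFD2 (a mitochondrial folate enzyme), MORF4L1 (a chromatin protein) and PTGES3 (the p23 co-chaperone). Pearson's r of the log2 signals was 0.997 for MYH10 and 0.996 for PTGES3, with the other 3 between them. The 9 arrays fall into 3 groups, so that this likeness rests on the differences between groups. MYH10 averaged 8368 in MVs, 1266 in EXOs and 2147 in hESEVs, and PTGES3 averaged 15201 in MVs, 2557 in EXOs and 4452 in hESEVs.

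Around the 10 genes, 6 other lists were read by leading probe sets. Over all genes, 10.9% of leading probe sets were higher in MVs and 2.14% lower. Of 10 measured paralogs, 3 were higher in MVs than in EXOs (10.9% of all genes) and 0 lower (2.14% of all), with a median log2 fold change of 0.25. YBX3, which like YBX1 carries a cold-shock domain, had means of 8743 in MVs and 776 in EXOs (log2 fold change 3.52, adjusted p = 5.9e-06), and RBPMS had a log2 fold change of 2.82 (adjusted p = 9.8e-05). EXOs lay under the background level for both, and with EXOs at that level the differences are at least 7.22-fold for YBX3 and at least 3.80-fold for RBPMS. With quantile normalization the log2 fold change of YBX3 was 2.66, a smaller difference than that bound. PABPC3, a retrotransposed copy of PABPC1, had one of 3.20 (adjusted p = 5.9e-06) on a probe set marked as sharing sequence. In contrast, ELAVL2, the neuronal and germ cell relative of ELAVL1, averaged 1695 ± 248 in MVs and 1332 ± 159 in EXOs and was not called (0.34, adjusted p = 0.19).

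Of 13 measured genes around let-7, 6 were higher in MVs (10.9% of all genes) and 0 lower (2.14% of all), with a median of 0.79. HMGA1, a chromatin protein whose mRNA let-7 represses, averaged 13444 ± 2031 in MVs and 1116 ± 276 in EXOs (log2 fold change 3.61, adjusted p = 1.4e-05). TRIM71, a let-7 target that is itself an RNA-binding protein of stem cells, averaged 3890 ± 76.6 in MVs and 912 ± 171 in EXOs (2.11, adjusted p = 6.2e-05). HMGA2 (1.52) and DICER1, which cuts microRNA precursors (1.46), were called as well, but their direction turned when the probe sets of the gene were averaged (−0.26 for HMGA2 and −0.16 for DICER1). EXOs lay under the background level for all 6 that were called. On the deposited scaling this makes the difference at least 11.0-fold for HMGA1, 3.22-fold for TRIM71, 1.47-fold for HMGA2 and 1.14-fold for DICER1. With quantile normalization the log2 fold change was 2.58 for HMGA1 and 1.54 for TRIM71, smaller differences than those bounds.

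A further list held genes for other proteins of messenger ribonucleoprotein particles (mRNP partners). Of 28 measured by their mRNAs, 10 were higher in MVs (10.9% of all genes) and 0 lower (2.14% of all), with a median of 0.94. STRAP (2.08), HNRNPU (2.58), CNBP (2.14), a zinc-knuckle protein, and QKI (1.51) had the smallest p, with adjusted p from 3.6e-06 to 6.8e-05. For 7 of the 10, CNBP among them (at least 3.75-fold), EXOs lay under the background level. Of 15 genes that work with the poly(A)-binding protein in translation and deadenylation, 5 were higher in MVs (10.9% of all genes) and 0 lower (2.14% of all), with a median of 0.55. They included EIF4G2, an initiation factor relative (3.44, adjusted p = 1.4e-06), and LARP1, which binds the 5′ ends of ribosomal protein mRNAs (1.95, adjusted p = 0.00013), as well as CNOT7, a deadenylase (1.40), and PAIP2, an inhibitor of PABPC1 (1.28). EXOs lay under the background level for 4 of the 5, which makes the difference at least 10.1-fold for EIF4G2, 3.80-fold for LARP1 and 1.59-fold for PAIP2. With quantile normalization, QKI (0.47) and CNOT7 (0.44) were not called. EIF4G2 (2.45), LARP1 (1.23) and CNBP (1.48) were still called there, with smaller differences than the bounds given on the deposited scaling. With probe sets averaged, HNRNPU, QKI, STRAP, LARP1, CNOT7 and PAIP2 were no longer called. In that setting 2 of the 28 mRNP partners were higher in MVs, beside 1769 of all 19775 genes, so no excess was left there.

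Most markers of the cells of origin moved in the same direction. Of 9 measured stem cell markers, 8 were higher in MVs than in EXOs (10.9% of all genes) and 0 lower (2.14% of all), with a median of 1.88. LEFTY1 leaned the other way under background and was not called (549 in MVs, 768 in EXOs, log2 fold change −0.49, adjusted p = 0.20). TERF1 had the largest log2 fold change (2.99, adjusted p = 1.4e-06), which is at least 7.09-fold with EXOs at the background level. DNMT3B, the DNA methyltransferase of embryonic cells, averaged 12575 ± 523 in MVs and 2834 ± 711 in EXOs (log2 fold change 2.18). With quantile normalization 3 of the 8, DPPA4, PODXL and TERF1, were called, and DNMT3B (0.60), NANOG (0.89), SALL4 (0.86), ZFP42 (0.86) and SOX2 (1.30, adjusted p = 0.051) were not. Of 35 tissue-restricted genes, 2 were higher in MVs (10.9% of all genes), 2 lower (2.14% of all) and 31 not called, with a median of −0.46. With 1 array left out, 0 to 2 of them were higher and 0 to 2 lower. How far the difference in stem cell markers and that in the 10 genes have the same source was not tested.

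**Figure D4:**
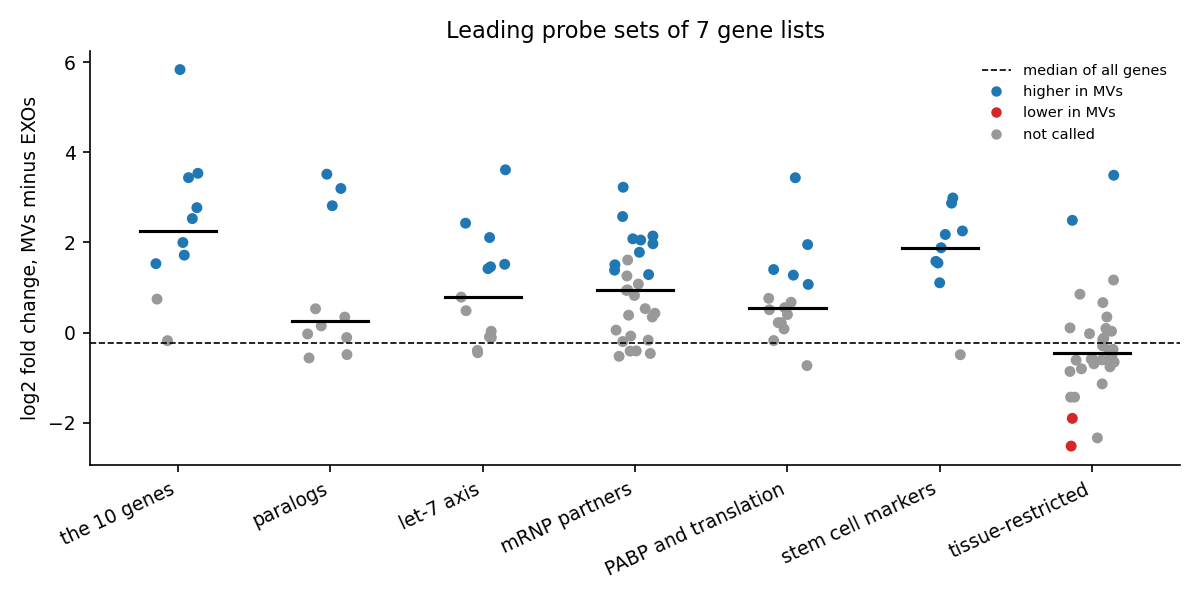
Log2 fold change, MVs minus EXOs, of the leading probe set of each gene in 7 lists, with a bar at the median of a list and a dashed line at the median of all genes (−0.23). The 10 genes have a median of 2.26 and the stem cell markers 1.88, and the tissue-restricted genes lie around −0.46.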

How the data were processed

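RNA of MVs, EXOs and hESEVs was measured on 9 arrays, 3 per group. The deposited values are MAS5 intensities on a linear scale, 1 per probe set, which the authors scaled to a mean of 500 per array; the version is not given in the sources used here. The RMA step of the study's own comparison is not part of these values. Arrays were grouped by the vesicle type in the labels. Signals under 32 were raised to 32 and log2 was taken, and 62 control probe sets were left out. The array annotation gives 1 gene for 41091 probe sets and several for 1801, which were not used for lists, and 41037 had a gene ID in RefSeq, used for names only.

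MVs and EXOs were fitted on their 6 arrays, and comparisons with hESEVs on all 9, by limma (version 3.58.1, R 4.3.3) using lmFit and a trended eBayes, with two-sided p-values adjusted after Benjamini-Hochberg over all 54613 probe sets. The p-values measure the spread between arrays, which may be partly technical. The number of arrays limits the precision. A gene's leading probe set is the one whose mean log2 signal over the 9 arrays is highest. The genes and lists were chosen with earlier results of these data known. All 10 genes are named, with up to 4 genes per list by smallest p, and the 5 most like LIN28A. Outside this rule, LEFTY1 is named as the marker that was not called. NANOG, SALL4, ZFP42 and SOX2 are named as further markers whose calls were lost with quantile normalization. The procedure was tested on simulated data. Alternatives were other scalings, floors, filters, uses of the probe sets and tests, a replicate block, and each array left out. Python 3.11.15, pandas 2.3.3, numpy 2.4.6 and matplotlib 3.10.9 made the tables and figures.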

Additional observations from a re-analysis of the deposited data

How the results depend on the processing

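The count of 12 probe sets higher in MVs than in EXOs was 6 of 10 with each gene's probe sets averaged (1769 of all 19775 genes). It was 7 of 13 without shared probe sets (1596 of all 37394). There YBX1 had no probe set left, and IGF2BP3 and PABPC1 had none higher in MVs. Both settings test fewer rows. With 1 array left out it was 9 to 12 (2988 to 3749 of all 54613). The count lower in MVs than in EXOs was 0 to 0 with 1 array left out (571 to 786 of all 54613). It was 1 with the methods' t-test without adjustment (2650 of all 54613). The 9 higher in MVs than in hESEVs became 2 with quantile normalization (993 of all 54613) and 5 of 10 with averaging (895 of all 19775 genes). With 1 array left out they were 8 to 10 (1820 to 2452 of all 54613). The 4 lower in EXOs than in hESEVs became 1 with quantile normalization (1055 of all 54613) and 1 with averaging (437 of all 19775 genes). They became 1 without shared probe sets (291 of all 37394). With the methods' t-test after Benjamini-Hochberg adjustment 1 was left (314 of all 54613). With 1 array left out they were 3 to 4 (842 to 1108 of all 54613). The causes were not tested.

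IGF2BP1 by 241574_s_at turned its sign, MVs minus EXOs, with quantile normalization (0.030), median centring (0.055) and averaging (1.37), and ran from −0.69 to 0.14 with 1 array left out (0.0089 without EXOs array 2 and 0.14 without EXOs array 3). MVs minus hESEVs it was 0.71 with averaging, and EXOs minus hESEVs it ran from −0.54 to 0.34 with 1 array left out (0.34 without EXOs array 1 and 0.13 without hESEVs array 3). With averaging, EXOs minus hESEVs was −0.25 for IGF2BP2 and 0.073 for IGF2BP3, and MVs minus EXOs was −0.29 for ELAVL2, −0.26 for HMGA2 and −0.16 for DICER1. Of 757 values of the 10 genes' probe sets under the alternatives, 693 kept direction and call, 49 lost a call, 5 gained one and 10 changed sign. Of 488 values of the named list genes, picked by smallest p, 468 kept both, 17 lost a call and 3 changed sign. The low-signal filter, the fit without a trend, the replicate block and the methods' t-tests leave the log2 fold change as it was. Its direction could not turn in those settings, so these counts are a description and no measure of robustness. The stem cell markers higher in MVs numbered 8, and 3 with quantile normalization (3696 of all 54613 probe sets). The 10 higher mRNP partners numbered 2 with averaging (1769 of all 19775 genes). Without shared probe sets, 1 of 8 paralogs and 3 of 9 mRNP partners were higher (1596 of all 37394 probe sets).

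Over all probe sets, deviations from the group means were uncorrelated between arrays of the same replicate number (−0.01 to 0.01). The median signal of every array lay under the background level, so this cannot tell whether replicates shared a culture. With a replicate block, 11 probe sets were higher in MVs than in EXOs (3524 of all 54613). In that setting 9 were higher in MVs than in hESEVs (2170 of all) and 4 were lower in EXOs than in hESEVs (965 of all). The median log2 fold change of all probe sets, MVs minus EXOs, was −0.29, and −0.06 after median centring, when 4765 were higher and 336 lower in MVs in place of 3949 and 1078. Signals near the background level limit the dimmer genes.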
